A study of Homo sapiens with 6 samples.

Results

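The HOX cluster genes were taken as every gene symbol made of HOXA, HOXB, HOXC or HOXD followed by digits only, whatever its level. This gave 39 genes of the 23617 symbols listed for MDA-MB-231 cells, with 47 of its 43497 transcripts, and 9 genes of the 1854 symbols listed for HMLER cells. The HOXA cluster on chromosome 7 holds 11 of them, the HOXB cluster on chromosome 17 holds 10, and the HOXC cluster on chromosome 12 and the HOXD cluster on chromosome 2 hold 9 each. MDA-MB-231 is a human breast cancer line of mesenchymal type, and HMLER is a line of human mammary epithelial cells transformed in culture with telomerase, SV40 antigens and oncogenic RAS. Treated cells received 10 µM 5-aza-2′-deoxycytidine (decitabine, DAC), a cytidine analogue that traps DNA methyltransferases and lowers DNA methylation, every day and were collected at 72 h. The comparison is between these and untreated cells of the same line. RNA from pools of separate extractions was sequenced in 6 libraries: 1 of untreated and 1 of DAC-treated MDA-MB-231 cells, 2 of untreated and 2 of DAC-treated HMLER cells. The values are FPKM (sequenced fragments scaled by transcript length and by library size), and here the FPKM of all transcripts of a symbol were summed. Since MDA-MB-231 had 1 library per condition and the HMLER table gives 1 merged value per condition, no difference below has a replicate check and no p-value is given.

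HOX genes encode homeodomain transcription factors that give cells their position along the body axis. They sit in 4 clusters in which the order of the genes follows the order of their expression domains, from paralog group 1 at the head end to group 13 at the tail end. In differentiated cells, the silent parts of the clusters are held by Polycomb complexes or, in many cancers, by DNA methylation of their CpG-rich promoters.

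The promoters of 4 HOXD genes are shown because these genes, in 1 cluster, started from and reached very different levels. Each line gives the 250 bases before the RefSeq start on the plus strand of chromosome 2 (GRCh38.p14), with every CpG in capitals. HOXD13 lies at chr2:176092471-176092720 and was listed at 0 before and 2.76 FPKM after DAC. HOXD1 lies at chr2:176188418-176188667 and went from 0.599 to 5.54 FPKM. HOXD10 lies at chr2:176116528-176116777 and was listed at 0 and 0.103 FPKM. HOXD4 lies at chr2:176151300-176151549 and was at 4.73 and 4.71 FPKM.
HOXD13: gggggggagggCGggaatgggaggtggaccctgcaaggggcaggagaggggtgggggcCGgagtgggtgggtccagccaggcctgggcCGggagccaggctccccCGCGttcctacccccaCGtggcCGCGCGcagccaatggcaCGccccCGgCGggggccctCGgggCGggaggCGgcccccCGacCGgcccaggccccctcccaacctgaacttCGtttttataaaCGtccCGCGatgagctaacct
HOXD1: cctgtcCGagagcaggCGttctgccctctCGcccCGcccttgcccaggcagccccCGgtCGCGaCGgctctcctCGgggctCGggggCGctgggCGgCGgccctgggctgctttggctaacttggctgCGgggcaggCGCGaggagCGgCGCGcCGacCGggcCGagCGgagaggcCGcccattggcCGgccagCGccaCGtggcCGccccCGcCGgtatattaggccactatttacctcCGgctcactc
HOXD10: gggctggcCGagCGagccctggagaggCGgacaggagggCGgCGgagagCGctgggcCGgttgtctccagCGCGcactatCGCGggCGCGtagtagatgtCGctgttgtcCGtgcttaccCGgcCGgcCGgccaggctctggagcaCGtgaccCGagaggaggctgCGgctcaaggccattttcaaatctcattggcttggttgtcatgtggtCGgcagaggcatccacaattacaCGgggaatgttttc
HOXD4: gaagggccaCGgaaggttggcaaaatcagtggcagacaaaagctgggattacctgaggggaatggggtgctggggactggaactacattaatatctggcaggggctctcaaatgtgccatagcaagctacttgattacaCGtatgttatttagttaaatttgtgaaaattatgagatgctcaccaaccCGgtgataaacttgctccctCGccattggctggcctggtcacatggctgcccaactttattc

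The HOXD13, HOXD1 and HOXD10 stretches held 21, 31 and 23 CpGs, and that of HOXD4 held 4. Their observed/expected CpG ratio was 0.618 for HOXD13, 0.888 for HOXD1, 0.923 for HOXD10 and 0.287 for HOXD4. The 4 genes were chosen after their values were seen, and no relation of CpG content to level is drawn from them. HOXD3, with nearly equal values before and after DAC like HOXD4, had a CpG ratio of 0.991 in its window. HOXC5, at 1.49 FPKM untreated, had one of 0.755, in a window that is also the one listed for HOXC4. The annotated HOXD3 start (177022035, GRCh37) lies upstream of its deposited locus, which begins at 177028804. The HOXD3 and HOXC5 windows may thus not be those of the transcripts measured. The deposited HOXD4 locus begins 166 bases before its annotated start, so the HOXD4 stretch may lie partly within the transcript measured. Over windows of 300 bases around RefSeq starts, 27 windows of 20 HOX genes could be read, with the window shared by HOXC4 and HOXC5 counted for each. Of these, 20 passed a GC content of 50% and a CpG ratio of 0.6 (the motif CG, read on both strands at once), against 46.8% of all 35116 windows. The median CpG ratio was 0.849 in the HOX windows and 0.579 in all windows. Most HOX windows were of HOXA genes, HOXB1 was the only HOXB gene with a window, and 4 of the 12 genes called higher below had one. In the HOXD cluster, 7 of 8 windows passed both limits, and HOXD4 was the exception. The HOXD13 window only just passed, with a CpG ratio of 0.60015. Methylation itself was not measured in these files.

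In MDA-MB-231 cells, 33 of the 39 HOX genes had a higher value after DAC than before, 3 a lower value and 3 were listed at 0 in both libraries. The summed FPKM of the HOX genes went from 30.2 to 65.6. The number of genes at 1 FPKM or more went from 8 to 17, and no gene listed above 0 before DAC was at 0 after it. Of all 23617 symbols, 11516 were at 1 FPKM or more untreated, 11292 were so in both libraries, and 1009 reached 1 FPKM only after DAC. Shares of all symbols were not computed for the other counts, and those by untreated level are given below. A gene was called higher when its summed FPKM was more than 2 times that of the untreated library, or lower when under 0.5 times, with 1 FPKM or more in at least 1 library. By this rule 12 of 17 HOX genes were higher, against 10.8% of the 12525 symbols past the same filter, and 0 were lower, against 4.82%. Of these 17 genes, 9 passed the filter only through their DAC value and so had to count as increased. The median log2((DAC + 1)/(untreated + 1)) of the 17 was 0.89, and that of all symbols past the filter was -0.08. The median DAC/untreated ratio was 0.912 (log2 of -0.13) among 11292 symbols that had at least 1 FPKM in each library, so a gene with an equal value in both libraries stood slightly above the median gene. In a bulk sample, more RNA per cell and more cells that transcribe a gene cannot be told apart.

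**Figure D1:**
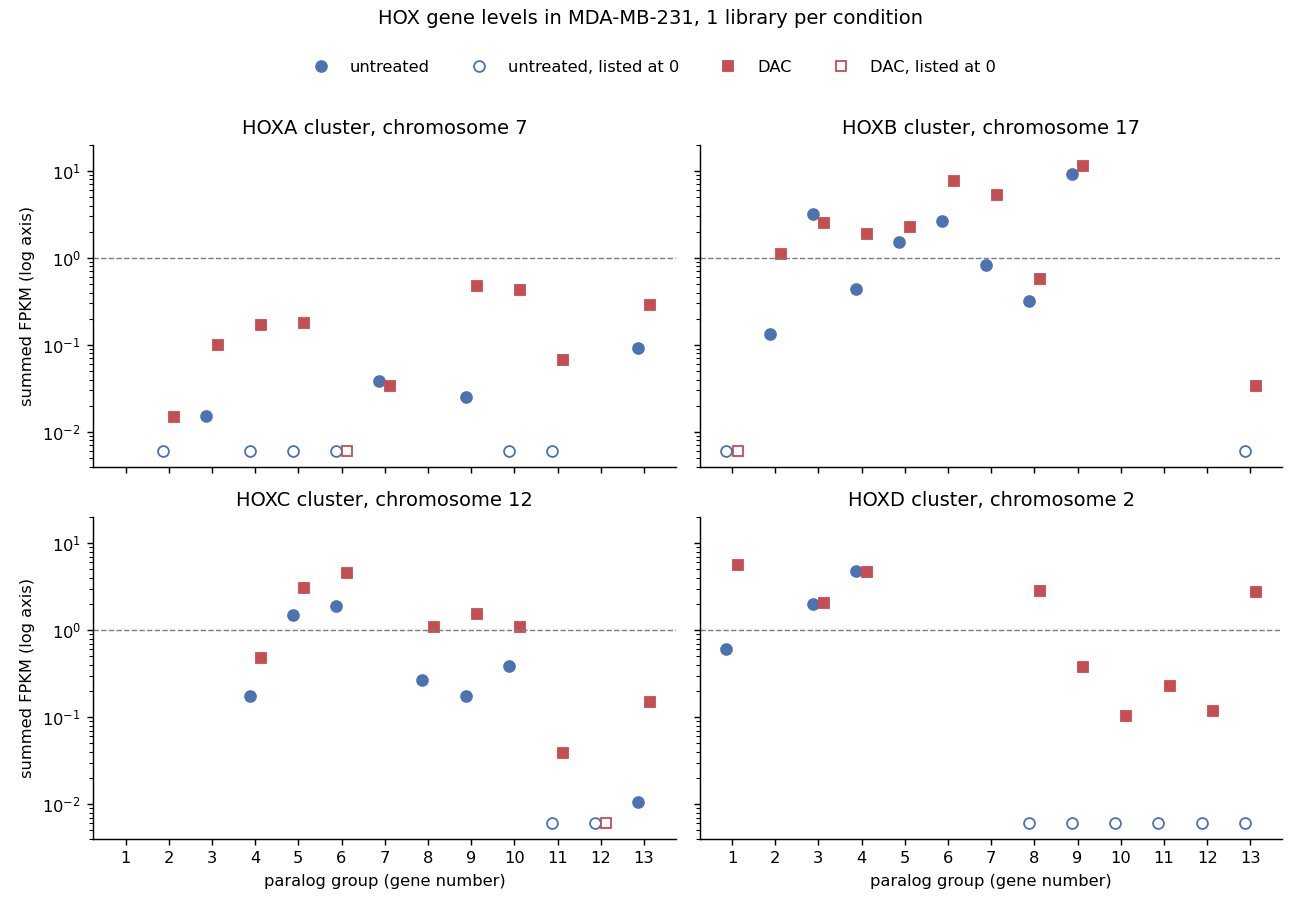
Summed FPKM (log axis) of 38 HOX genes by paralog group in untreated (blue circles) and DAC-treated (red squares) MDA-MB-231 cells, 1 library each, with open symbols at the lower edge for genes listed at 0 and a dashed line at 1 FPKM. HOXB9 is the highest gene in both libraries (9.28 and 11.5 FPKM), the HOXA genes shown all stay under 1 FPKM, and HOXD8 to HOXD13 are at 0 before DAC.

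As this filter uses the DAC value, the genes were also sorted by their untreated level alone. Of the 17 HOX genes listed at 0 without DAC, 14 were above 0 after it, against 29.1% of all symbols listed at 0. The symbols listed at 0 include microRNA precursors, which libraries of polyadenylated RNA may miss. They also include genes with entries on alternative haplotypes, such as RING1 and RXRB. These were not set apart, so 29.1% may be too low a share to set beside mRNAs such as those of HOX genes. Of the 14 HOX genes above 0 but under 1 FPKM, 7 reached 1 FPKM with more than a 2-fold change, against 14.5% of all such symbols. Taken as 1 class, 9 of the 31 HOX genes under 1 FPKM reached 1 FPKM, against 8.34% of all symbols. Of the 8 HOX genes already at 1 FPKM or more, HOXB6, HOXC5 and HOXC6 were higher, against 4.29% of all symbols of this class, and 0 were lower, against 5.24%. HOXC5 passed the 2-fold limit only with a noncoding entry added to its main transcript. The other 5, HOXB3, HOXB5, HOXB9, HOXD3 and HOXD4, had DAC/untreated ratios from 0.798 to 1.48. In each class with an upward change the HOX share was above that of all symbols.

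**Figure D2:**
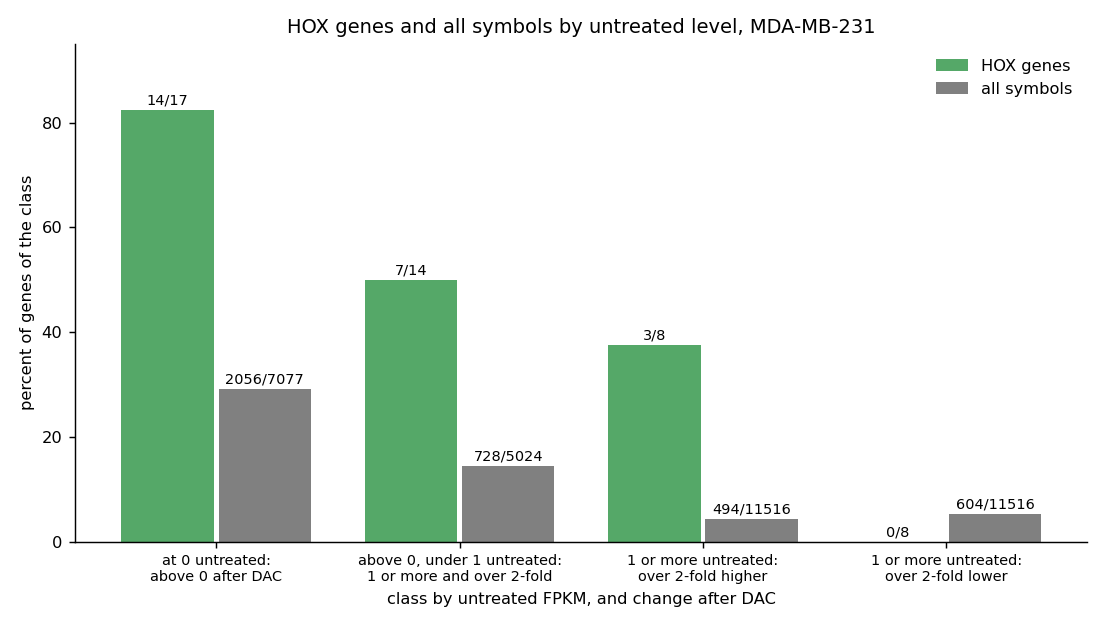
Percent of HOX genes (green) and of all symbols (grey) that changed after DAC in MDA-MB-231, by class of untreated FPKM, with the number changed over the number in the class above each bar. The HOX bars stand above the grey bars in the 3 upward classes (14/17, 7/14 and 3/8), and no HOX gene is in the downward class (0/8).

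The HOXA cluster was almost silent in MDA-MB-231 cells. Its 11 genes summed to 0.171 FPKM untreated and 2.05 FPKM after DAC, a ratio of 12.01, and none reached 1 FPKM in either library. Of these genes, 9 had a higher value after DAC, a count for which the share of all symbols was not computed. The highest values after DAC included those of HOXA9, known from leukaemias, with 0.0253 FPKM untreated and 0.470 FPKM after DAC, and HOXA10, needed in the uterus, at 0 and 0.433 FPKM. HOXA13, a gene of limb and urogenital development, was at 0.0914 and 0.286 FPKM. HOXA4 was listed at 0 and 0.170 FPKM, and HOXA11 at 0 and 0.0675 FPKM. HOXA7 had 0.0389 FPKM untreated and 0.0336 FPKM after DAC, and HOXA6 was at 0 in both. HOXA2, HOXA3 and HOXA5 lay between 0.015 and 0.179 FPKM after DAC.

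The HOXB cluster held most of the HOX transcripts, 60.7% of their summed FPKM untreated and 50.1% after DAC. It went from 18.3 to 32.9 FPKM, a ratio of 1.79. HOXB9 (chr17:46698518-46703720, GRCh37) was the most abundant HOX gene in both libraries, at 9.28 FPKM untreated (Cuffdiff bounds 3.89 to 14.7) and 11.5 FPKM after DAC (5.21 to 17.7). Of the 38 other HOX genes, 33 had an upper bound under the lower bound of HOXB9 in the untreated library, and 30 in the DAC library. The order of the genes below it, from HOXD4 at 4.73 and HOXB3 at 3.18 to HOXC5 at 1.49 FPKM, is within these bounds.

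In the HOXB cluster 4 of 7 genes past the filter were called higher, against 10.8% of all symbols. Of the 4, HOXB2, HOXB4 and HOXB7 passed it only through their DAC value. HOXB7 (chr17:46684594-46688379), a gene studied as an oncogene in breast cancer, was at 0.828 FPKM untreated (bounds 0 to 2.34) and 5.30 FPKM after DAC (0.185 to 10.4). HOXB6 was at 2.63 FPKM (0 to 6.45) and 7.71 FPKM (1.45 to 13.96). HOXB4, known for expanding blood stem cells, was at 0.436 and 1.88 FPKM, and HOXB2, a hindbrain gene, at 0.134 and 1.10 FPKM. The bounds of the libraries overlap for each of the 4 genes. HOXB5 was at 1.53 and 2.26 FPKM, and HOXB8 at 0.319 and 0.569 FPKM, both short of the 2-fold limit. HOXB3 had a lower value after DAC, 2.54 FPKM against 3.18 FPKM, a log2 ratio of -0.33, or -0.19 relative to the median gene. HOXB1 was at 0 in both libraries and HOXB13, a prostate gene, at 0 and 0.0333 FPKM.

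The HOXC cluster went from 4.40 to 11.96 FPKM, a ratio of 2.72. All 5 of its genes at 1 FPKM or more in at least 1 library were called higher, against 10.8% of all symbols past this filter. Of the 5, 3 passed the filter only through their DAC value and so had to count as increased. HOXC6 was at 1.88 FPKM untreated and 4.50 FPKM after DAC, and HOXC5 at 1.49 and 3.08 FPKM. The main HOXC5 transcript was at 1.31 and 1.82 FPKM, a ratio of 1.39, short of the 2-fold limit. Its call rests on adding a noncoding entry of the gene, at 0.181 and 1.27 FPKM. HOXC9, which sets thoracic motor neuron identity, was at 0.175 and 1.54 FPKM. HOXC8 was at 0.270 and 1.10 FPKM, and HOXC10 (chr12:54378930-54384063), a gene of the lumbar region and hindlimb, at 0.388 and 1.08 FPKM. These 3 genes reached 1 FPKM only after DAC. HOXC4 was at 0.177 and 0.484 FPKM and HOXC13, a hair gene, at 0.0107 and 0.149 FPKM. HOXC11 was at 0 and 0.0386 FPKM, and HOXC12 was listed at 0 in both.

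In the HOXD cluster a pattern along the chromosome was seen. The cluster went from 7.33 to 18.7 FPKM, a ratio of 2.55. The 6 genes from HOXD8 to HOXD13 were all listed at 0 untreated and were all above 0 after DAC, against 29.1% of all symbols listed at 0. HOXD13 (chr2:176957449-176960672, GRCh37), a gene of digits and genitalia at the tail end of the cluster, went from 0 to 2.76 FPKM (bounds 0.125 to 5.39). It was the only HOX gene whose bounds did not overlap between the libraries, and Cuffdiff gave its untreated value of 0 bounds of 0. HOXD8 (chr2:176994433-176997423) also went from 0 to 2.82 FPKM, split over 3 transcripts at 0.448, 1.33 and 1.04 FPKM. The genes between them stayed low, HOXD9 at 0.379, HOXD10 at 0.103, HOXD11 at 0.225 and HOXD12 at 0.116 FPKM after DAC. The values of HOXD10 and HOXD12 rest on 7 and 3 reads (given below), whose counting intervals overlap that of 0 reads untreated. At the other end HOXD1 (chr2:177053396-177055635) was at 0.599 FPKM (bounds 0 to 2.16) untreated and 5.54 FPKM (0 to 11.7) after DAC. HOXD3 and HOXD4, between HOXD8 and HOXD1, had nearly equal values in the libraries, 2.004 and 2.051 FPKM for HOXD3 and 4.73 and 4.71 FPKM for HOXD4. Relative to the median gene their log2 ratios were 0.17 and 0.13. The value of HOXD4 is thus below its untreated value as deposited and above it after that scaling.

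By paralog group across the clusters, groups 1 to 3 went from 5.93 to 11.6 FPKM (ratio 1.96, 2 higher of 4 genes past the filter), groups 4 to 8 from 14.3 to 34.8 FPKM (ratio 2.43, 7 higher of 9) and groups 9 to 13 from 9.97 to 19.1 FPKM (ratio 1.92, 3 higher of 4). Over all symbols past the filter the share was 10.8%, and 9 of these 12 higher genes passed it only through their DAC value. Genes called higher lay in each of these ranges. After division of the DAC values by the median ratio of all symbols, the cluster ratios were 13.2 for HOXA, 1.96 for HOXB, 2.98 for HOXC and 2.80 for HOXD.

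**Figure D3:**
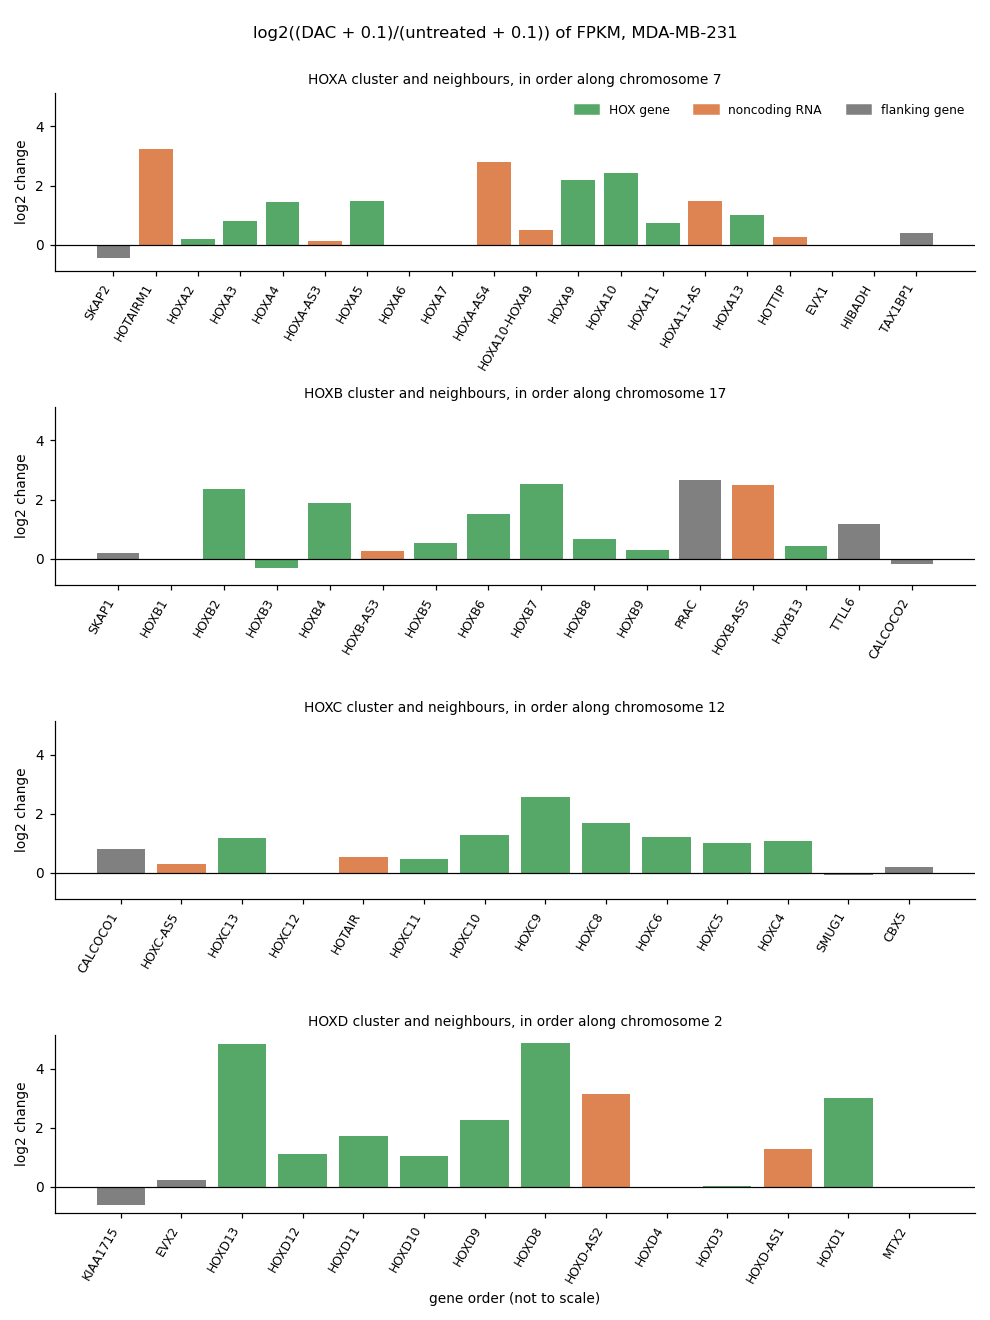
Change after DAC in MDA-MB-231, as log2((DAC + 0.1)/(untreated + 0.1)) of FPKM, for 38 HOX genes (green), cluster noncoding RNAs (orange, placed by the start of their locus in the deposited table) and flanking genes (grey) in order along each chromosome. HOXD8 and HOXD13 have the tallest bars, HOXD3 and HOXD4 between them and HOXD1 have almost none, and a gene at 0 in both libraries has no bar. PRAC, drawn in grey, lies within the HOXB cluster, between HOXB9 and HOXB13.

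The depth behind the lowest values can be read from the FPKM themselves. Values of low transcripts that are alone at their locus fell on multiples of 1 read in both libraries (all of 767 and 791 values within 0.1 read). Per effective kilobase, 1 read was worth 0.0235 FPKM untreated and 0.0236 FPKM after DAC. Reads could be inferred in this way for 23 HOX genes. The intervals are exact 95% Poisson intervals and cover counting error only, not the spread between cultures. HOXD13 had 0 reads untreated (0 to 3.69) and 248 after DAC (218 to 281). HOXB7 had 41 reads (29.4 to 55.6) and 261 reads (230 to 295), HOXB4 34 and 146, HOXB2 8 and 65, and HOXC9 10 and 87. HOXB9 rested on 987 and 1213 reads. HOXD3 had 179 reads (154 to 207) and 182 reads (157 to 210), and HOXD4 had 220 (192 to 251) and 218 (190 to 249), each value resting on 179 reads or more.

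At the low end, the values above 0 were small counts. HOXD9 had 27 reads after DAC (17.8 to 39.3), HOXD11 12 (6.20 to 21.0) and HOXA4 11 (5.49 to 19.7), each against 0 untreated. HOXD10 and HOXA11 had 7 reads each after DAC, HOXB13 4, HOXD12 3 and HOXA2 1, and their intervals overlapped that of 0 reads untreated. HOXB1 and HOXC12 had 0 reads in both libraries. The intervals of the libraries were apart with more reads after DAC in 12 of the 23 genes, against 23.1% of the 10296 symbols that could be read in this way, and apart with fewer in 1 gene, HOXB3 (463 and 367 reads), against 22.6%.

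**Figure D4:**
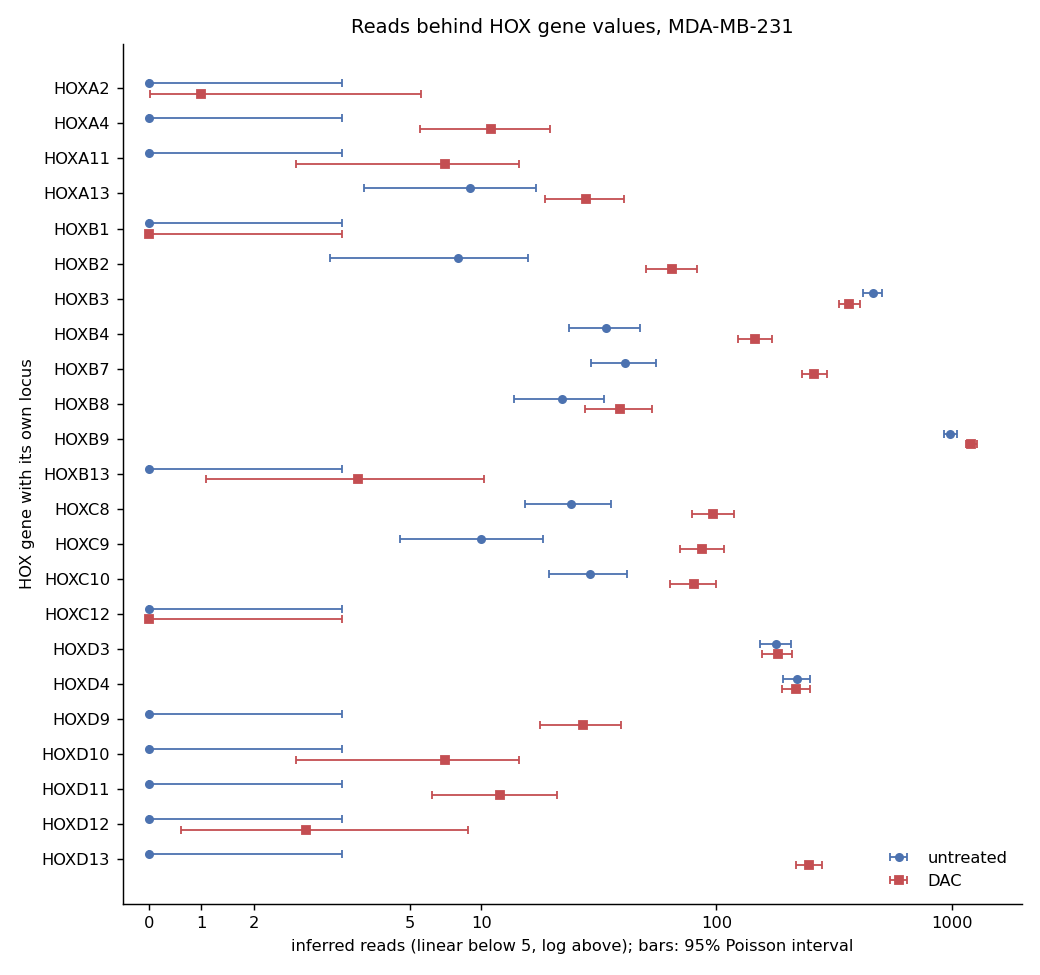
Reads inferred for the 23 HOX genes that are alone at their locus (linear axis below 5, log axis above), untreated (blue circles) and after DAC (red squares), with exact 95% Poisson intervals. HOXD13 has 0 and 248 reads, HOXD3 and HOXD4 have overlapping points near 200, and HOXB3 has fewer reads after DAC.

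The other 16 HOX genes share their locus with further transcripts, so their split of reads was estimated by Cuffdiff. For 13 of them the locus holds other symbols. HOXC4, HOXC5 and HOXC6 lie in 1 locus of 7 transcripts, as do HOXB5, HOXB6 and the noncoding HOXB-AS3. HOXA5, HOXA6 and HOXA7 form another, with HOXA-AS3, and HOXA9 and HOXA10 a further one, with the readthrough HOXA10-HOXA9 and HOXA-AS4. HOXD1 shares its locus with HOXD-AS1, HOXC13 with HOXC-AS5 and HOXC11 with HOTAIR. The strand setting of the counting is not given in the sources used here, so reads of a gene and its antisense partner cannot be told apart. Among the 12 genes called higher, this concerns HOXB6 and HOXD1, while for HOXC5 and HOXC6 the split between overlapping HOXC transcripts is the uncertain step.

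In HMLER cells, the deposited table lists only transcripts that were higher after DAC, so a HOX gene that is not listed has no known level there. Its lowest value after DAC was 1.003 FPKM and its lowest ratio 2.001, so every listed gene passed 1 FPKM and 2-fold by the limits of the table. It lists 9 of the 39 HOX genes, against 7.85% of the symbols of the MDA-MB-231 table, with ratios from 2.01 to 8.09 for the 8 that were above 0 untreated. From the HOXA cluster, HOXA4 went from 2.54 to 5.10 FPKM, and HOXA11, which acts in the uterus and forelimb, from 0.407 to 1.40 FPKM. Both were under 0.2 FPKM in both MDA-MB-231 libraries. The HOXB cluster gave HOXB4 at 0.221 and 1.79 FPKM, HOXB5 at 0.282 and 1.29 FPKM, HOXB6 at 1.56 and 5.47 FPKM and HOXB9 at 1.49 and 3.25 FPKM. HOXC10 went from 0.849 to 5.34 FPKM and had, after HOXB4, the largest ratio of the HOX genes listed above 0 untreated (6.29 and 8.09). HOXD13 was listed at 0 without DAC and at 1.15 FPKM with it.

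HOXB4, HOXB6, HOXC10 and HOXD13 were higher in both lines, which is 4 of 39 HOX genes against 1.94% of all symbols. HOXB4, HOXC10 and HOXD13 were under 1 FPKM untreated in both lines and so passed the filter only through their DAC values. With 1 FPKM required in both libraries, 1 gene, HOXB6, was left. The HMLER values were all of listed rises, so they give no separate check of direction. Of the 9 HOX genes listed for HMLER, these 4 were called higher in MDA-MB-231, against 24.8% of all symbols listed for HMLER. HOXD13 was listed at 0 in the untreated cells of both lines. HOXB5 and HOXB9 had ratios of 4.57 and 2.19 in HMLER and 1.48 and 1.24 in MDA-MB-231, where their untreated values were higher. The other genes called higher in MDA-MB-231, HOXB2, HOXB7, HOXC5, HOXC6, HOXC8, HOXC9, HOXD1 and HOXD8, are not in the HMLER table. The tables were normalised separately, so levels are set side by side and not tested between the lines.

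**Figure D5:**
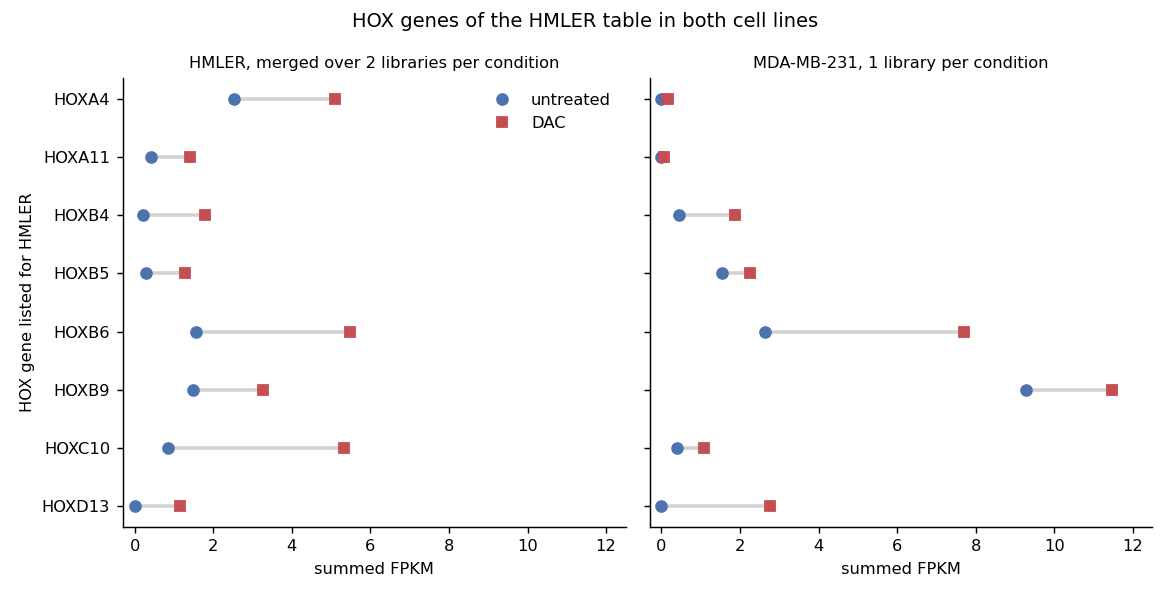
Summed FPKM (linear axis from 0) of 8 HOX genes listed for HMLER, untreated (blue circles) and after DAC (red squares), in HMLER (left, values merged over 2 libraries per condition) and MDA-MB-231 (right, 1 library per condition), with a grey line joining the values of a gene. HOXB9 is highest in MDA-MB-231 in both conditions, HOXA4 and HOXA11 lie near 0 there, and HOXD13 starts at 0 in both lines.

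The noncoding RNAs of the clusters were examined next. Of 18 in the MDA-MB-231 table, 16 were at 0 untreated. Of these 16, 10 were above 0 after DAC, against 29.1% of all symbols listed at 0, and 6, all microRNA precursors, were at 0 in both (the libraries were of polyadenylated RNA). Only HOXD-AS1 and HOXB-AS3 reached 1 FPKM (median log2 change 0.68, beside -0.08 for all symbols). HOXD-AS1, beside HOXD1, was called higher, at 4.85 FPKM (bounds 1.73 to 7.96) and 11.9 FPKM (5.69 to 18.2), and HOXB-AS3 was at 2.53 and 3.06 FPKM. HOTAIRM1, a noncoding RNA of the HOXA cluster, was at 0 and 0.843 FPKM, and HOTAIR at 0 and 0.0443 FPKM. In HMLER, HOXB-AS3 was listed at 1.39 and 4.14 FPKM, HOXC-AS5 at 0.817 and 3.63 FPKM and HOXA11-AS at 0.297 and 1.24 FPKM.

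The genes flanking the clusters were read in the same way. They lie just outside the clusters, except PRAC, which lies between HOXB9 and HOXB13. Of 14 flanking genes in the table, 9 were at 1 FPKM or more, all of them already untreated. Of these 0 were higher and 0 lower, against 4.29% and 5.24% of all symbols at 1 FPKM or more untreated, so 0 of 9 is near those shares. The largest changes of these 9 were those of CALCOCO1 (6.01 and 10.6 FPKM) and KIAA1715 (15.9 and 10.3 FPKM), on the HOXC13 and HOXD13 sides of their clusters. The next were SKAP2 (13.1 and 9.57 FPKM) and TAX1BP1 (54.0 and 71.3 FPKM), on either side of the HOXA cluster. The median log2 change of these 9 genes was -0.04. MTX2, beyond HOXD1, was at 61.4 and 61.5 FPKM. Among the listed genes under 1 FPKM, PRAC, within the HOXB cluster, was at 0 and 0.527 FPKM. Outside it, TTLL6 was at 0.0301 and 0.192 FPKM and SKAP1 at 0.171 and 0.207 FPKM. The even-skipped homeobox genes that adjoin the clusters were listed at 0 in both libraries (EVX1) or at 0 and 0.0167 FPKM (EVX2). None of the flanking genes is in the HMLER table.

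The cofactors of HOX proteins, TALE homeodomain proteins that bind DNA with them, included 6 of 9 at 1 FPKM or more, of which 1 was higher and 0 lower, against 10.8% and 4.82% of all symbols past the filter, the shares for the lists that follow too. It was MEIS3, at 0.504 and 3.44 FPKM, which passed the filter only through its DAC value, and the median log2 change of the 6 was 0.33. PBX3, the most abundant of them, was at 10.8 and 11.7 FPKM and MEIS2 at 5.15 and 7.22 FPKM. PBX4 was at 1.58 and 2.28 FPKM and MEIS1 at 0.843 and 1.29 FPKM. No cofactor is listed for HMLER. Of 21 CDX and other homeobox genes related to HOX, 5 were at 1 FPKM or more, and 3 were higher and 0 lower (median log2 change 0.93). These were DLX3 (0.0880 and 1.76 FPKM), DLX1 (0.474 and 1.81 FPKM) and GBX2 (3.17 and 8.18 FPKM), of which DLX3 and DLX1 passed the filter only through their DAC value, with MSX2 short of the limit (1.17 and 1.91 FPKM). MSX1 (0.623 and 3.54 FPKM) and DLX2 (0.588 and 2.34 FPKM) were listed for HMLER.

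Of the Polycomb and Trithorax genes, whose products keep HOX genes off or on, 26 of 28 were at 1 FPKM or more, with 1 higher and 0 lower (median log2 change -0.13). KDM6B, a demethylase that removes the Polycomb mark on histone H3, was at 1.97 FPKM (bounds 0.569 to 3.37) and 5.34 FPKM (2.51 to 8.17). EZH1, CBX2 and CBX6 had ratios of 0.520, 0.540 and 0.537, just short of a lower call, and EZH2 was at 37.1 and 31.7 FPKM. In HMLER, ASH2L was listed at 1.24 and 5.45 FPKM for the transcripts in the table. Retinoic acid is a classical inducer of HOX genes, and 8 genes of its pathway were at 1 FPKM or more, with 2 higher and 0 lower (median log2 change 0.29). CRABP2, which carries retinoic acid to its receptors, was at 1.95 FPKM (bounds of its main transcript 0 to 4.76) and 24.3 FPKM (8.28 to 36.6). RDH10, an enzyme of retinal synthesis, was at 3.54 and 10.7 FPKM and was listed for HMLER at 3.29 and 8.48 FPKM. ALDH1A3, an enzyme of retinoic acid synthesis, was also listed for HMLER (2.65 and 9.75 FPKM). Whether any of these genes has a part in the HOX values was not tested.

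The markers of the line were read in the same table. VIM, CD44, KRT8 and KRT18 were all present, at 139 to 3066 FPKM, and VIM was called lower, at 3066 FPKM untreated (bounds 0 to 10419) and 1134 FPKM after DAC. ESR1, PGR and CDH1 were at 0 untreated and under 0.2 FPKM after DAC, while EPCAM, an epithelial gene listed among the low markers, was at 7.90 and 9.78 FPKM. The FPKM of all transcripts summed to 589238 untreated and 480455 after DAC. Their part in the HOX values was not tested. The HMLER table, limited to transcripts listed as higher, was not used for a marker check.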

How the data were processed

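Polyadenylated RNA of MDA-MB-231 and HMLER cells, untreated or treated with DAC, was sequenced by the authors from Illumina TruSeq libraries made from pooled extractions. The authors aligned reads to hg19 with TopHat2 and deposited FPKM values per RefSeq transcript from Cuffdiff, run on the Galaxy server (versions are not given in the sources used here). For MDA-MB-231 the table gives 1 library per condition with bounds of each FPKM. For HMLER it gives 1 value per condition over 2 libraries, only for transcripts that the authors listed as higher. Its columns of fold changes, p-values and q-values, the authors' own comparisons, were not used. The untreated MDA-MB-231 library carries another cell line number in 1 label, and its title was followed.

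FPKM were summed over the transcripts of a symbol. A symbol was called higher above 2-fold and lower under 0.5-fold, with 1 FPKM or more in at least 1 library. With 1 value per condition no test was run. Every HOX gene is a member: those at 1 FPKM or more, or listed for HMLER, are named by cluster, except that some items are not reported here. Of other lists at most 4 genes at 1 FPKM or more with the largest change, those listed for HMLER, and a few chosen after their values were seen (EZH2, EVX1, EVX2, MTX2, PRAC, TTLL6, SKAP1, HOTAIR, HOTAIRM1, PBX3) are named. The members and lists were chosen with earlier results of these data known. Reads were inferred where low FPKM of transcripts over 2000 bases, alone at their locus, fell on multiples of 1 read (effective length taken as the length less 205 bases). The 2-fold call was tested on simulated data for MDA-MB-231, where all 200 of 10296 genes changed 4-fold were recovered with 0 false calls. Both the changed genes and those checked for false calls were at 5 FPKM or more, so lower levels were not tested. Untreated, 1 HOX gene, HOXB9, was at that level. The simulated libraries differed by counting error only, so the spread between cultures was not tested either. Positions are those of MANE Select transcripts (GENCODE on GRCh37, the assembly of hg19) and overlapped the deposited locus for 39 of 39 genes. Promoter sequences are from RefSeq (GRCh38.p14), and no coordinates were converted. Alternatives were other filters, pseudocounts, transcripts, scaling and the bounds. Computations used numpy 2.4.6, scipy 1.17.1 and pandas 2.3.3 in Python 3.11.15, and figures matplotlib 3.10.9.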

Additional observations from a re-analysis of the deposited data

How the results depend on the processing

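Of 50 alternative values, 36 stayed within 1.5 times the reported one (for log2 values, 1.5 times on the linear scale) and 14 moved, with 0 reversed. The count of 12 HOX genes higher in MDA-MB-231 became 29 with no filter, 3 with 1 FPKM in both libraries, 3 with 5 FPKM in at least 1 library, 7 with 1 FPKM added to both values, and 1 when the Cuffdiff bounds had also to be apart. The count of 4 genes higher in both lines became 7 with no filter and 1 with each of 1 FPKM in both libraries, 5 FPKM and bounds apart. The median log2 change of 0.89 became 1.52 with a pseudocount of 0.1, 0.32 with one of 5, 0.28 with no filter and 1.52 with 5 FPKM in at least 1 library. The 9 genes listed for HMLER became 4 with 1 FPKM in both conditions and 3 with 5 FPKM in at least 1. Filters and bounds change these counts by admitting fewer or more genes. The shares of all symbols under these settings were not given, and with no filter any rise from 0 counts as higher. The count of 0 lower genes held under all 10 alternatives run for it, and the 4 cluster ratios kept their direction and stayed within 1.5 times under scaling, largest transcript and status. No paired analysis was possible because values of single HMLER libraries were not analysed here (1 merged value per condition), although the labels give them shared replicate numbers. For the same reason, limma across the HMLER libraries, a replicate block and leaving out a library were not run. The cause of the differences between libraries was not tested, and depth limits the lowest HOX genes, such as HOXA2, HOXD12 and HOXB13 with 1 to 4 reads after DAC.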
